A study of Arabidopsis thaliana with 12 samples.

Results

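The effect of the rop10-1 mutation without added hormone was read from 6 arrays, 3 of rop10-1 mock seedlings and 3 of Ws mock seedlings, out of 12 in the study. Members were chosen by their titles alone, as arrays of either genotype that received no abscisic acid (ABA), and were paired by the replicate number in the title, which gave 3 pairs. All seedlings were Arabidopsis thaliana grown for 7 days in shaken liquid MS medium (150 rpm) with 3% sucrose. Both mock groups then spent 4 hours in MS medium with the solvent DMSO. They differed in genotype: Ws mock was wild type of the Ws accession, and rop10-1 mock carried rop10-1, a mutant allele of ROP10. The remaining 2 groups of 3 arrays each, Ws ABA and rop10-1 ABA, received 1 µM ABA in place of the mock treatment. They are used here as separate arrays for the same contrast between genotypes. The samples held 1 mutant allele and no line with ROP10 restored. RNA came from about 100 mg of whole seedlings, so a lower signal from fewer cells of a type and one from less RNA per cell cannot be told apart. The design text calls the replicates biological.

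ROP proteins are plant small GTPases, which switch between an active state with bound GTP and an inactive state with bound GDP. Exchange factors such as SPK1 turn them on, GDP dissociation inhibitors such as SCN1 hold them off the membrane, and active ROPs act on actin, microtubules, vesicle traffic and reactive oxygen production. ROP10 is known in Arabidopsis as a plasma membrane ROP whose loss makes seedlings more sensitive to ABA. The comparison without ABA asks how the mutant seedlings differed before any hormone was given.

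No tested probe set was assigned to ROP10 or to any other of the 11 ROP genes. The mutated gene could therefore not be picked out by annotation, and the genotype labels were not checked by it. Whether a probe set without a single gene measures ROP10 was not tested. Of 15922 tested probe sets, 8717 were assigned to a single gene. The remaining 7205 had several genes or none listed and are given by their probe set ID where they are mentioned. Many loci have no symbol in the gene table, and no role is given for these. The median signal of the 6 mock arrays lay between 184.5 and 203.3, and the log2 ratio of 3' to 5' ubiquitin probe sets, a sign of RNA quality, was 0.84 to 0.91 in rop10-1 mock and 0.82 to 1.104 in Ws mock. No such ratio separated the genotypes (two-sided exact permutation p of 0.5 for ubiquitin, 0.3 for actin and 1 for GAPDH, where 0.1 is the smallest that 3 against 3 arrays allow). The arrays of number 2 stood apart in stress genes: STZ, a zinc finger factor quickly induced by cold and other stress, read 572.1, 2292.3 and 507.9 in Ws mock 1, 2 and 3 and 1001.8, 3062.7 and 512.8 in rop10-1 mock 1, 2 and 3. The calls, the chromosome 5 count and the 2-fold genes are therefore given with and without number 2.

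Without ABA the genotypes differed at 7 probe sets, of which 4 rose and 3 fell in rop10-1. They were 0.044% of those tested, by limma with a block for the replicate number and a Benjamini-Hochberg adjusted p under 0.05. Without the block 5 passed (0.0314%), all of them among the 7. For each of the 7, the groups of 3 arrays did not overlap and the 3 pairs differed in 1 direction, which held for 9.45% and 31.8% of all tested probe sets. Of the 7, 3 had a single gene, and these lie in the first 124 protein-coding genes of chromosome 5. The eighth smallest adjusted p was 0.224.

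Fes1C (AT5G02150), which encodes a relative of the yeast Hsp70 nucleotide exchange factor Fes1, read 247.9, 233.5 and 296.4 in Ws mock 1, 2 and 3, and 686.9, 613.8 and 750.2 in rop10-1 mock 1, 2 and 3. Each mutant array was above every wild-type array. Its log2(signal + 16) rose by 1.35 (SE 0.11, 95% interval 1.11 to 1.59, limma adjusted p = 0.000425, n = 3 arrays per group), by 1.41, 1.34 and 1.29 in pairs 1, 2 and 3. The pairs thus differed little in size. The related Fes1A and Fes1B, on chromosome 3, had log2 differences of 0.16 and -0.10, and neither passed.

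AT5G01350 read 460.5, 436.5 and 401.7 in Ws mock and 945.1, 1229.2 and 1223.1 in rop10-1 mock. The lowest mutant array was above the highest wild-type array, and the rise on the log2 scale was 1.35 (SE 0.14, limma adjusted p = 0.00345). AT5G01015 fell, from 278.0, 306.9 and 434.5 in Ws mock to 119.0, 113.2 and 111.2 in rop10-1 mock. Its log2 difference was -1.42 (SE 0.17, limma adjusted p = 0.0116). The mutant arrays were within a few units of each other, while Ws mock 3 stood above the other wild-type arrays. Over 15 fits that left out 1 array or 1 number, Fes1C passed in 14, AT5G01350 in 10 and AT5G01015 in 8. Fes1C missed the threshold without number 3. AT5G01350 missed it without Ws mock 2, rop10-1 mock 2, rop10-1 mock 3, number 2 or number 3, and AT5G01015 missed it in these fits and without Ws mock 3 or rop10-1 mock 1. Without number 2 the differences of Fes1C, AT5G01350 and AT5G01015 were 1.35, 1.29 and -1.47 (limma adjusted p = 0.048, 0.0578 and 0.152).

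The remaining calls had no single gene in the probe table. Probe set 245501_at read 25.2, 6.3 and 7.7 in Ws mock and 413.0, 168.2 and 255.2 in rop10-1 mock, the largest difference of all tested probe sets on this scale at 3.31 (SE 0.23, limma adjusted p = 0.000158). The wild-type values are close to the added constant of 16, which makes this log2 value smaller than that of the signals themselves. With wild-type signals this low, the size of the difference is poorly measured. The low filter used the mean over all 12 arrays, to which the rop10-1 arrays contributed most for this probe set. Probe set 252375_at fell from between 250.3 and 283.6 in Ws mock to between 66.9 and 99.6 in rop10-1 mock (-1.57, SE 0.18, adjusted p = 0.00701). Probe set 251037_at fell from between 400.5 and 606.0 to between 177.0 and 230.5 (-1.18, SE 0.16, adjusted p = 0.0269, 0.378 without the block). Probe set 253957_at rose from between 109.8 and 186.8 to between 230.0 and 374.6 (1.00, SE 0.13, adjusted p = 0.0242, 0.997 without the block). Of the same 15 leave-out fits, 245501_at passed in 15, 252375_at in 8, 253957_at in 7 and 251037_at in 5. Without number 2 their differences were 3.45, -1.52, 0.91 and -1.26, with limma adjusted p of 0.0218, 0.145, 0.181 and 0.145.

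**Figure D1:**
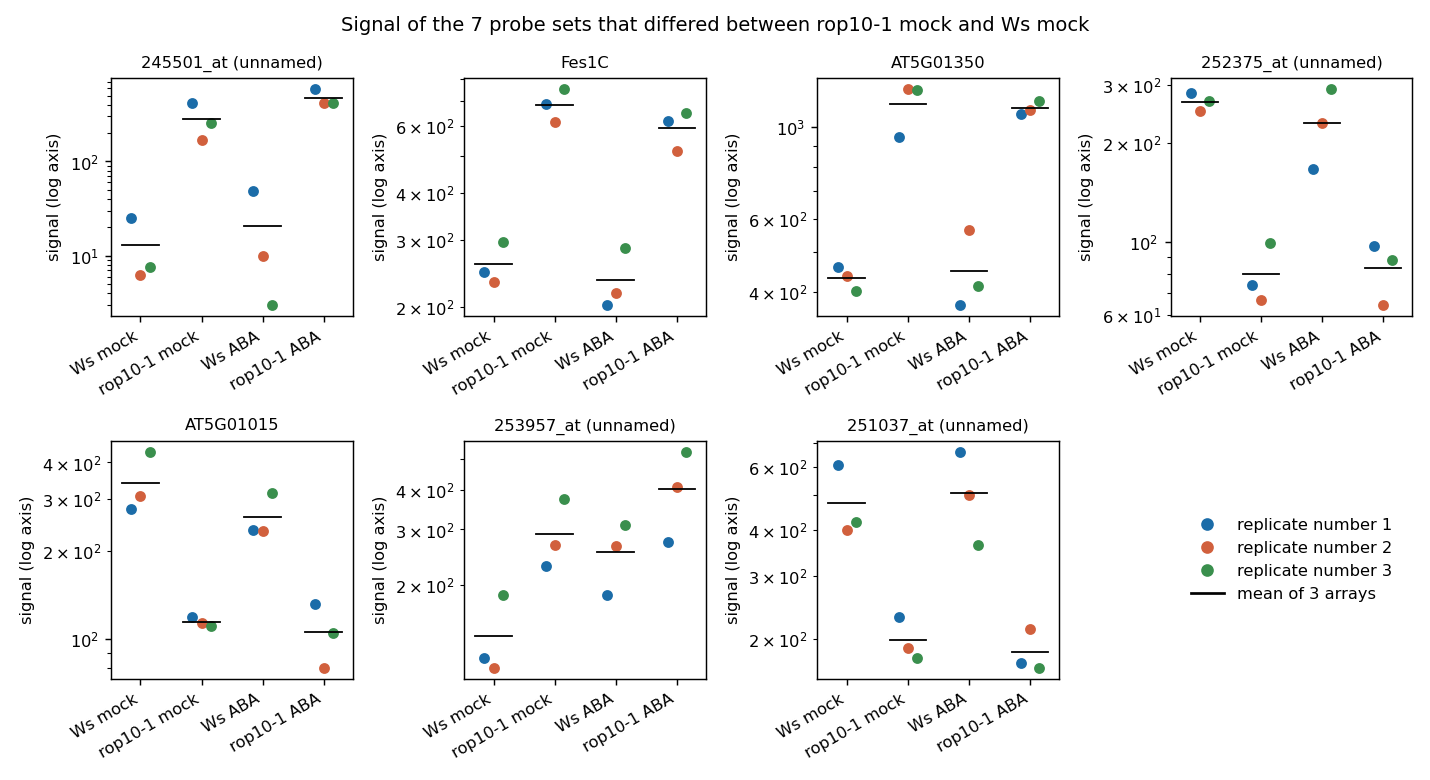
Signal (vertical axis, log scale, as deposited) of the 7 probe sets that differed between rop10-1 mock and Ws mock, in all 4 groups. Points are arrays coloured by replicate number and lines are means of 3 arrays; in every panel the 3 rop10-1 mock points lie on one side of the 3 Ws mock points, and Fes1C stays between 613.8 and 750.2 against 233.5 to 296.4.

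The ABA arrays are separate libraries of the same genotypes and share with the mock arrays the fit and the replicate numbers. In them 6 of the 7 passed again in the same direction, against 44 calls or 0.276% of all tested probe sets, and the seventh, 253957_at, had a log2 difference of 0.61 (limma adjusted p = 0.0688). Fes1C read 202.5, 217.6 and 287.0 in Ws ABA and 618.5, 516.1 and 647.7 in rop10-1 ABA, a rise of 1.29 (limma adjusted p = 0.000712). AT5G01350 read 372.2, 564.7 and 412.9 against 1072.5, 1092.9 and 1149.9, and AT5G01015 read 235.5, 232.9 and 314.1 against 131.8, 79.8 and 104.8. The genotype difference under ABA minus that in mock was -0.06, -0.06 and 0.22 on the log2 scale for these 3 genes, and none of these interactions passed. Across all probe sets the interaction gave 0 calls (0%) with limma, the smallest adjusted p being 0.451. At an unadjusted p under 0.05 it gave 801 (5.03%).

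Away from the calls the differences were small. The median log2 difference over all tested probe sets was 0.00015, and the 5th and 95th percentiles were -0.31 and 0.36. With 3 pairs the 95% interval reached 0.31 to either side of the estimate at the median probe set, and it was narrower than 0.5 to either side for 92.4% of them. An unadjusted p under 0.05 was reached by 1525 probe sets (9.58%), of which 853 were higher (5.36%) and 672 lower (4.22%) in rop10-1. Without the block it was reached by 598 (3.76%), and with it by 851 when Ws mock 2 was left out and by 941 when rop10-1 mock 2 was. Of the 1525, 80.5% differed by less than 0.5 on the log2 scale. In the ABA arrays, where 2362 probe sets (14.8%) reached that p, 1221 of the 1525 (80.1%) differed in the same direction, against 61.6% of all tested probe sets. At that p in both treatments, 453 had the same direction and 17 opposite ones.

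A difference of at least 2-fold was found at 40 probe sets that were higher (0.251%) and 6 that were lower (0.0377%) in rop10-1. Beyond the calls, 37 were higher and did not pass the test (limma adjusted p of 0.400 to 0.606), and their genes were picked after their values were seen. In 36 of them rop10-1 was higher in all 3 pairs, yet in 32 the groups overlapped. Ws mock 2 was the highest wild-type array in 33 and rop10-1 mock 2 the highest mutant array in 33, and Ws mock 2 exceeded rop10-1 mock 1 or rop10-1 mock 3 in 30. The difference in pair 3 was the largest of the pairs in 29 and that of pair 2 the smallest in 25. All 37 were higher in rop10-1 under ABA as well, with a median log2 difference of 1.90 against 1.33 in mock. An unadjusted p under 0.05 was reached there by 34 and an adjusted one by 1, against 14.8% and 0.276% of all tested probe sets. The ABA arrays carry the same replicate numbers, so these counts are not independent support.

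Of the 37, 18 had a single gene. ZCF37 read 20.4, 410.4 and 16.2 in Ws mock and 263.8, 426.2 and 308.7 in rop10-1 mock. The wild-type seedlings of number 2 were at the mutant level and the others far below it. The pair differences were 2.94, 0.05 and 3.33, and the estimate of 2.11 had an SE of 0.66 (limma adjusted p = 0.419). Number 2 was also the highest array of Ws ABA, at 11.8, 173.7 and 10.9, against 346.8, 352.8 and 616.6 in rop10-1 ABA.

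AT2G41730, whose probe set ID marks probes shared with other transcripts, read 256.9, 1694.6 and 117.3 in Ws mock and 1013.4, 3710.4 and 1332.8 in rop10-1 mock. Here pair 2 also differed, by 1.12, but Ws mock 2 lay above rop10-1 mock 1 and 3. AT2G32020 read 121.9, 582.4 and 121.9 in Ws mock against 417.1, 1133.6 and 433.1 in rop10-1 mock, a log2 difference of 1.43 (SE 0.43, limma adjusted p = 0.419). AT2G04050 read 42.4, 481.9 and 67.8 against 162.4, 721.7 and 356.8, a difference of 1.44. It was the 1 gene of the 37 that passed under ABA, at 2.75 (limma adjusted p = 0.0385).

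AT1G26380, held in a list of FAD-linked oxidases of the berberine bridge type, read 103.8, 368.8 and 76.9 in Ws mock and 250.4, 661.2 and 385.0 in rop10-1 mock. The difference was 1.36 (SE 0.54), with an interval from 0.18 to 2.54. Its listed neighbour AT1G26420 read 58.7, 94.1 and 37.7 against 72.9, 190.6 and 118.7, a difference of 0.83. Under ABA these 2 genes differed by 2.52 and 2.77. AT2G21640 read 170.7, 1384.9 and 325.4 against 377.8, 1753.7 and 1067.1, a difference of 1.03. In each of these genes the number 2 arrays were the highest of their genotype.

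In AT4G28460 number 2 was again the highest of each genotype, but pair 3 differed least. It read 6.5, 92.0 and 51.5 in Ws mock and 100.9, 281.8 and 62.8 in rop10-1 mock, and pair 3 differed by 0.22. AT2G19970 was the 1 gene of the 18 in which number 2 was the highest array of neither genotype. It read 122.0, 39.6 and 14.5 against 229.3, 127.9 and 142.9, and its groups did not overlap. It had the smallest unadjusted p of the 18 (0.000657, limma adjusted p = 0.400), and its difference was 1.53 in mock and 0.60 under ABA. The other 10 genes differed by 1.00 to 1.83: AT1G78410, AT4G37290, AT2G20720, AT1G74870, AT2G23270, AT1G19020, AT3G30843, AT1G24140, AT3G45730 and AT5G58610.

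When all arrays of number 2 were left out, 6 probe sets passed in all. Fes1C and 245501_at stayed among them, and 4 of the 37 joined, with ZCF37 at 3.14 (limma adjusted p = 0.0218) and AT2G32020 at 1.68 (limma adjusted p = 0.0362). The median difference of the 37 was then 1.63. Number 2 was singled out after its values were seen, and pair 2 differed least in 25 of the 37. Larger differences without number 2 follow in part from that choice, so these passes are a description. With the block, a fit restricted to the 6 mock arrays gave 14 calls (0.0879%), the 7 above and 7 more, among them AT2G41730, AT2G32020, AT2G23270 and AT1G19020. The same 6 arrays without the block gave 0 calls with limma and 560 at an unadjusted p under 0.05, a setting chosen after seeing the data. The part of the number 2 arrays in the size of these differences was described by these values and not otherwise tested.

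**Figure D2:**
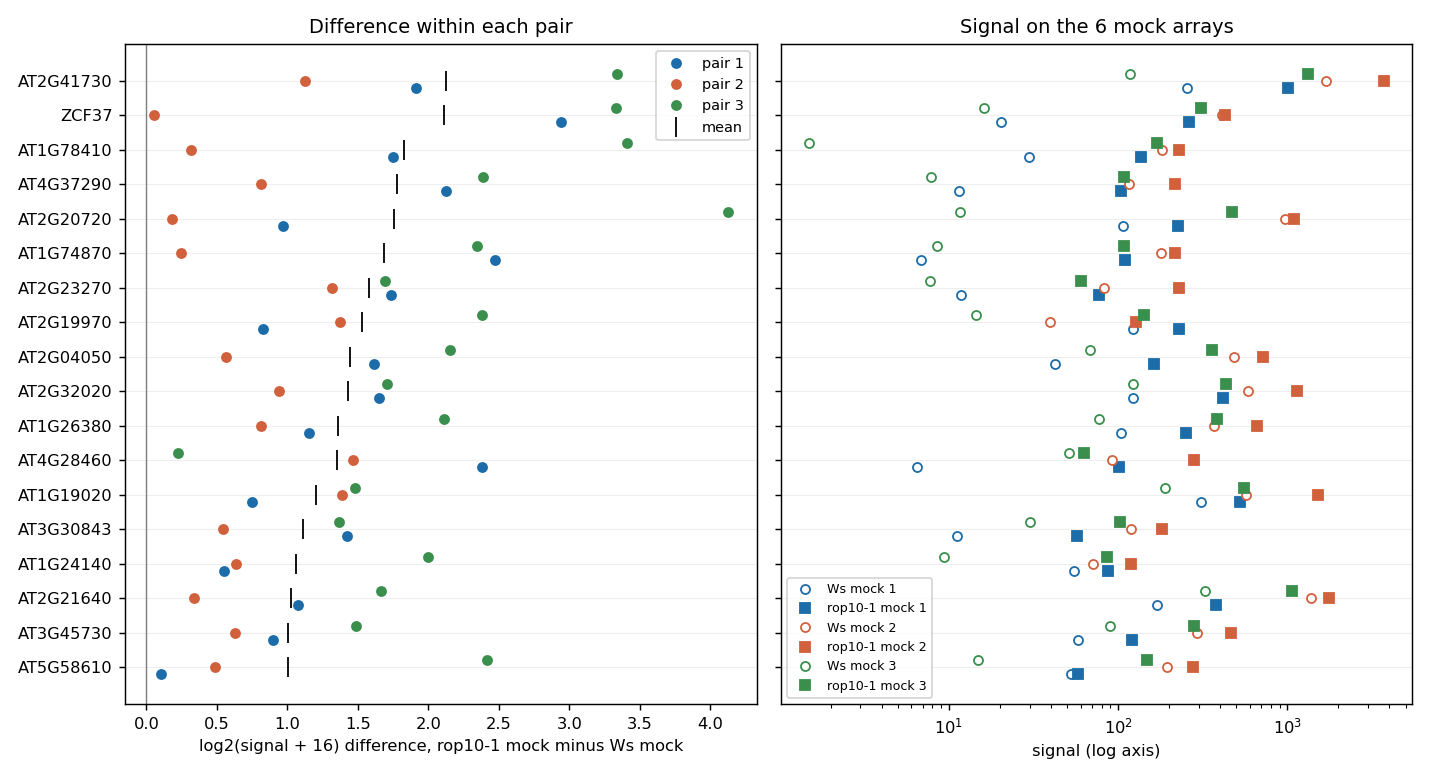
The 18 single-gene probe sets at least 2-fold higher in rop10-1 mock that did not pass the test. The left panel plots the log2(signal + 16) difference rop10-1 mock minus Ws mock in each pair with the mean of 3 as a bar, and the right panel the signal on each mock array on a log axis; for ZCF37 pair 2 sits at 0.05 and pairs 1 and 3 at 2.94 and 3.33, and the open circle of Ws mock 2 lies among the mutant squares.

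A stricter choice kept single-gene probe sets with an unadjusted p under 0.05, pairs of 1 direction and groups that did not overlap. Of 8717 tested single-gene probe sets it held 245 higher and 139 lower in rop10-1. Of these 384, 299 (77.9%) had the same sign under ABA, against 61.6% of all tested probe sets. The 15 largest differences in the higher direction ran from 0.66 to 1.53, and all 15 were positive under ABA. There 9 of them had an unadjusted p under 0.05, which 14.8% of all tested probe sets reached. Besides genes named above they included SAL2, of the SAL phosphatase family that acts on phosphoadenosine phosphate and inositol phosphates. SAL2 read 121.3, 120.1 and 71.1 in Ws mock and 149.0, 176.9 and 234.0 in rop10-1 mock, a difference of 0.76. Under ABA its difference was 2.02 (limma adjusted p = 0.0385), and the interaction had a limma adjusted p of 0.906. AT5G60460 read 859.7, 1046.1 and 952.3 against 1175.4, 1707.5 and 1719.6, a difference of 0.66 that was 0.12 under ABA. AT4G25250 read 49.5, 56.1 and 71.5 against 123.0, 104.8 and 117.2, a difference of 0.81 that was 0.03 under ABA (interaction: limma adjusted p = 0.906). AT5G52750, AT5G15420, AT1G76070, AT5G62340 and AT3G18250 had differences of 0.90, 0.76, 0.71, 0.70 and 0.70. Apart from the calls, no gene of this choice passed.

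The 15 largest differences in the lower direction ran from -1.42 to -0.54, and 9 of the 15 were negative under ABA. An unadjusted p under 0.05 was reached there by 4, against 14.8% of all tested probe sets, and 3 of these 4 had the same direction. SIS, named for salt induction and its serine-rich product, read 542.0, 418.4 and 531.3 in Ws mock and 344.6, 328.3 and 289.7 in rop10-1 mock, a difference of -0.60 that was 0.16 under ABA. CHX20, a cation/H+ exchanger that works in guard cells, read 144.4, 169.1 and 134.6 against 132.9, 66.3 and 96.2, a difference of -0.57 that was 0.17 under ABA. In CHX20 the mutant arrays spread widely, with rop10-1 mock 1 just under the lowest wild-type array. UGT72B3, a UDP-glucosyltransferase, differed by -0.55 in mock and -0.37 under ABA.

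AT3G07180 read 482.1, 443.1 and 447.8 in Ws mock and 366.0, 266.9 and 290.6 in rop10-1 mock. Its difference was -0.56 in mock and 0.31 under ABA, and the interaction had a limma adjusted p of 0.906. AT1G20070 read 699.8, 566.9 and 570.5 against 405.8, 369.2 and 336.2, a difference of -0.70 in mock and -0.45 under ABA. AT1G12080, AT5G45630, AT1G13730, AT3G60410 and AT1G60200 had differences of -0.75, -0.68, -0.67, -0.63 and -0.62. AT1G49580, AT5G53880, AT3G01490 and AT4G11100 had differences of -0.56, -0.56, -0.56 and -0.54. No gene in the lower direction but AT5G01015 passed.

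The named calls sit together at the top end of chromosome 5. Among the first 281 protein-coding genes, from AT5G01010 to AT5G03610, 101 had a tested probe set of their own, and 3 of these passed. An unadjusted p under 0.05 was reached by 20 of the 101 (19.8%), 16 higher and 4 lower, against 9.58% of all tested probe sets. The groups did not overlap for 25 (24.8%), against 9.45%. The region was chosen with earlier results of these data known, so these shares are a description. The median difference of the 101 was 0.01, with 54 positive.

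Under ABA 29 of the 101 (28.7%) reached that p, against 14.8% of all tested, and 18 of the 20 had the same sign as in mock. In both treatments 12 reached it with 1 sign. Without the block 16 of the 101 reached it in mock, and with it 13 did when rop10-1 mock 2 was left out and 15 when number 2 was. The same settings gave 598, 941 and 881 over all 15922 tested probe sets, against 1525 in the main fit. The 2 genes beside Fes1C were among the 20. AT5G02140 read 67.4, 63.5 and 89.3 in Ws mock and 127.5, 157.8 and 153.4 in rop10-1 mock (0.87), and AT5G02160 read 1068.2, 958.3 and 1579.0 against 2133.5, 1230.4 and 2000.0 (0.56). AT5G02180 read 101.7, 102.4 and 107.5 against 166.7, 214.3 and 225.0, a difference of 0.85 (SE 0.17), with narrow groups far apart. AT5G01870 read 2972.4, 1718.9 and 2108.1 against 4437.7, 2728.3 and 3339.3 (0.63).

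AT5G02710, AT5G02440, AT5G01940, AT5G02540, AT5G02740, AT5G03345, AT5G02420, AT5G02720 and AT5G03460 had differences of 0.71, 0.62, 0.51, 0.45, 0.43, 0.42, 0.39, 0.35 and 0.20. GSTL3, a lambda class glutathione transferase, read 1926.4, 2210.6 and 2444.5 against 2924.1, 2706.1 and 3138.0, a difference of 0.42. In the lower direction were SIS, AT5G01075 at -0.38 and EXPA9, a wall-loosening expansin, at -0.32 (571.3, 450.2 and 487.5 against 406.1, 373.3 and 412.0). Both directions thus occurred in the region, with 16 of the 20 higher and 4 lower. None of these genes but the 3 calls passed.

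**Figure D3:**
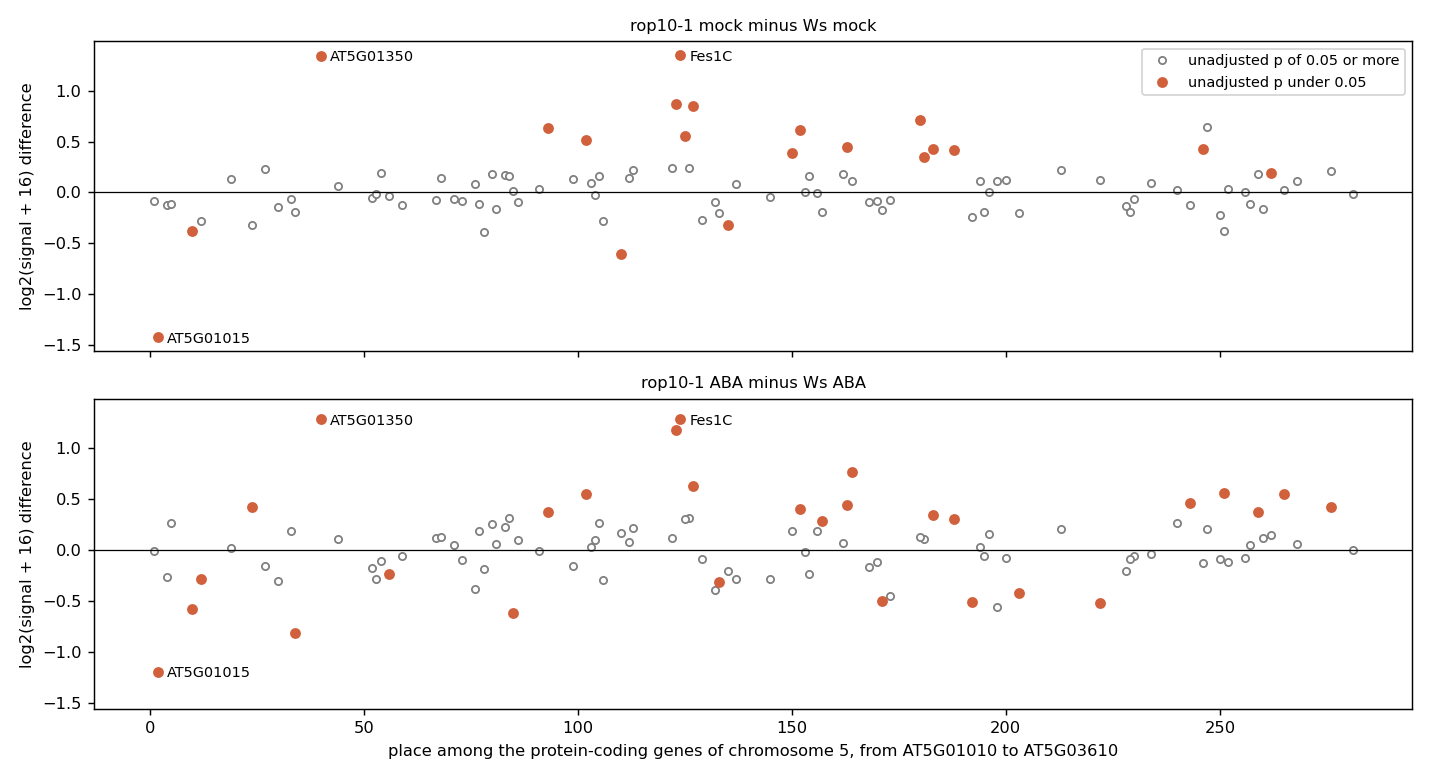
Genotype differences of the 101 tested genes at the top end of chromosome 5 by their place in gene order (horizontal axis), in mock (upper) and under ABA (lower), as log2(signal + 16) differences. Filled points had an unadjusted p under 0.05 (20 in mock, 29 under ABA); AT5G01350 and Fes1C lie near 1.3 and AT5G01015 below -1 in both panels.

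Windows of 100 neighbouring protein-coding genes put these shares beside the rest of the genome. Of 256 windows with at least 20 tested probe sets, the median share with an unadjusted p under 0.05 was 8.63% and the highest 32.6%. The highest was that of genes 101 to 200 of chromosome 5, with 14 of 43, 12 higher and 2 lower. Its median log2 difference was 0.11, rank 5 of 256 from the highest. It ranked 2 of 256 under ABA, at 30.2%. Genes 1 to 100, which hold AT5G01015 and AT5G01350, had 4 of 35 (11.4%) and a median of -0.06, rank 245.

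The window that ranked 2 in mock was genes 3801 to 3900 of chromosome 3, with 7 of 27 (25.9%). Under ABA its share was 22.2%, rank 30 of 256, against 14.8% of all tested probe sets. ROP10 (AT3G48040) is gene 3824 of that chromosome and lies within this window. Among the listed neighbours of ROP10, from AT3G47540 to AT3G48540, 35 of 114 genes were tested and 7 (20%) reached an unadjusted p under 0.05, against 9.58% of all tested, 2 higher and 5 lower. None passed. AT3G48200 read 1745.1, 1454.6 and 1433.7 in Ws mock and 1455.3, 619.4 and 1025.3 in rop10-1 mock, a difference of -0.65 in mock and -0.50 under ABA. AT3G48440 differed by -0.48 in mock and 0.12 under ABA. AT3G47836 and PYE, a bHLH factor of the response to iron deficiency, differed by 0.46 and 0.41 in mock and by 0.02 and 0.05 under ABA.

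**Figure D4:**
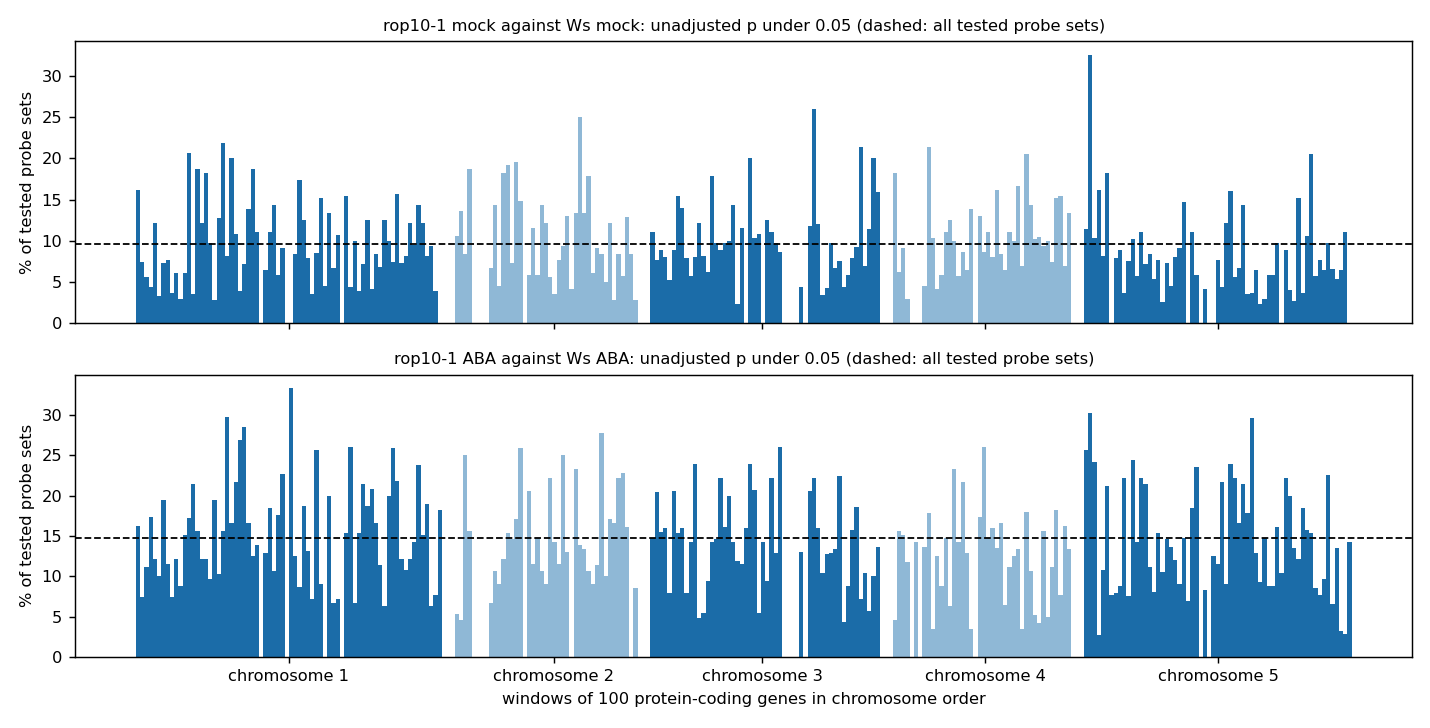
Share of tested probe sets with an unadjusted p under 0.05 (vertical axis, %) in windows of 100 protein-coding genes along the 5 chromosomes, in mock (upper) and under ABA (lower); gaps are windows with fewer than 20 tested. The dashed lines are 9.58% and 14.8%, the shares over all tested probe sets, and the highest mock bar, 32.6%, is the second window of chromosome 5.

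Gene lists for the biology of ROP10 and of seedling stress held few tested members, and no member of any list passed other than Fes1C and the chromosome 5 genes above. Of 36 regulators and effectors of ROPs, 2 were tested. SPK1, the exchange factor that activates ROPs, read 364.8, 381.6 and 238.1 in Ws mock and 287.5, 239.7 and 225.4 in rop10-1 mock, a difference of -0.35 (95% interval -0.71 to 0.02, limma adjusted p = 0.534). SCN1, the dissociation inhibitor that confines ROP activity in root hair cells, differed by 0.05 (-0.21 to 0.32).

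Genes of ABA biology had no call in mock. Of 43 core signalling genes 1 was tested, the bZIP factor EEL, with a difference of -0.05 (95% interval -0.53 to 0.43). The ABA glucosyltransferases UGT71C5 and UGT71B6 differed by 0.03 and -0.04. Among 5 ABA-induced genes, the dehydrin COR47 read 9625.2, 6102.5 and 5432.1 in Ws mock and 6794.7, 6042.9 and 3921.3 in rop10-1 mock (-0.33, limma adjusted p = 0.452). The dehydrin LTI30 differed by 0.36, and the late embryogenesis protein gene LEA4-5 by -0.31. LEA4-5 was dim, at 33.2, 6.0 and 12.1 in Ws mock, and without Ws mock 1 its difference was 0.0055. The chloroplast cold-regulated gene COR15B differed between the genotypes by 0.05 in mock and by -1.16 under ABA (limma adjusted p = 0.0381). Its interaction had a limma adjusted p of 0.906. The median of the 5 was 0.04, so they did not share a direction.

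Autophagy genes leaned one way without passing. All 11 tested members were higher in rop10-1 mock, with a median of 0.27 and a range of 0.11 to 0.41, where 50% of all tested probe sets were higher. Most encode ATG8, the ubiquitin-like protein that coats the autophagosome membrane, and 5 had an unadjusted p under 0.05: ATG8B, ATG8C, ATG8H, APG8H and ATG8D. That p was reached in the higher direction by 5.36% of all tested probe sets. ATG8B read 587.4, 640.3 and 528.6 in Ws mock and 670.7, 923.3 and 773.5 in rop10-1 mock (0.41, limma adjusted p = 0.427), and ATG8C read 645.1, 697.2 and 633.9 against 809.6, 824.0 and 850.1 (0.32). In both the groups stood apart. Under ABA the median of the list was 0.19. Members of 1 gene family can share probe signal, and their values are not independent of each other. The list was chosen with earlier results of these data known, so these counts are a description.

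All 6 tested calmodulin-like proteins, which bind calcium, were higher too, with a median of 0.45, where 50% of all tested probe sets were higher. An unadjusted p under 0.05 was reached by 2 of the 6, against 5.36% of all tested probe sets in the higher direction. CML30 read 196.9, 191.2 and 360.8 against 337.2, 332.2 and 338.2 (0.46) and CML23 read 154.9, 462.0 and 147.7 against 293.5, 535.1 and 179.8 (0.44). In neither did the groups separate. Under ABA CML30 and CML23 differed by 0.10 and -0.33, and the median of the 6 was 0.19. This list too was chosen with earlier results of these data known.

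Actin regulators were mixed. BRK1, a small subunit of the SCAR/WAVE complex that activates actin nucleation downstream of ROPs, read 336.6, 386.1 and 319.6 in Ws mock and 417.1, 424.2 and 451.4 in rop10-1 mock. Its difference was 0.30 in mock and -0.40 under ABA (interaction: limma adjusted p = 0.906). The 10 tested members of the actin list, most of them NET actin-binding proteins, had a median of -0.23 and a range of -0.50 to 0.30.

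Of 12 detoxification genes, 2 glucosyltransferases were higher at an unadjusted p under 0.05 and 1 lower, where 5.36% of all tested probe sets were higher and 4.22% lower at that p. UGT73C1 read 18.6, 128.4 and 12.9 in Ws mock and 43.4, 252.2 and 53.3 in rop10-1 mock (0.98), with number 2 again the highest. UGT76E2 read 92.9, 48.4 and 59.9 against 117.7, 94.1 and 121.3 (0.64), with groups just apart, and was -0.20 under ABA. UGT73B1 differed by -0.29. Of 11 glutathione transferases, GSTU25 differed by 0.44 and no other reached that p. Of 20 wall-loosening expansins and xyloglucan enzymes, 3 reached it: XTH19 differed by 0.42, XTH32 by -0.40 and EXPA9 by -0.32, and the median was 0.01. Under ABA these 3 differed by 0.11, -0.83 and -0.20, and XTH32 passed there (limma adjusted p = 0.0385). The interaction of XTH32 had a limma adjusted p of 0.906. The anthocyanin gene DFR, for dihydroflavonol reductase, differed by 0.35 in mock and by -1.10 under ABA (interaction: limma adjusted p = 0.451).

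Lists of hormone and stress responses had no member with an unadjusted p under 0.05. They held 5 tested auxin genes, 3 of jasmonate, 3 of gibberellin, 2 of ethylene, 6 WRKY factors and 4 of rapid stress. RR16, a response regulator induced by cytokinin, read 117.0, 518.3 and 495.6 in Ws mock and 236.0, 536.9 and 733.4 in rop10-1 mock (0.51). WRKY6, a transcription factor of senescence and defence, read 356.7, 622.9 and 178.9 against 501.2, 617.6 and 467.3 (0.59). The defensin gene PDF1.2, a marker of jasmonate and ethylene, read 499.1, 121.5 and 76.0 against 281.8, 64.1 and 79.5 (-0.51). In all 3 the arrays of 1 genotype spread as widely as the genotypes differed. These 3 were chosen after their values were seen.

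The plastid-encoded genes, 66 of them tested, had a median of -0.06 with 42 lower and 24 higher, where 50% of all tested probe sets were higher. An unadjusted p under 0.05 was reached by 2 of the 66, both lower (3.03%, against 9.58% of all tested probe sets). ndhE, for a subunit of the chloroplast NDH complex, read 538.0, 808.0 and 1079.0 against 338.1, 494.7 and 904.8 (-0.53), and rpl22, for a ribosomal protein, differed by -0.18. The 9 mitochondrial probe sets had a median of 0.05, and none of them reached an unadjusted p under 0.05. The 9 tested heat shock and co-chaperone genes had a median of -0.02, with Fes1C the 1 that stood out. The 9 reference genes, chosen for steady expression, ranged from -0.24 to 0.23, and none of them reached that p.

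Markers of tissues were close between the genotypes. The summed signal of the 11 tested green tissue markers, 4 of them plastid-encoded, was 70058 to 85784 in Ws mock and 71316 to 73643 in rop10-1 mock. Of the 11, 9 were lower and 2 higher, with a median of -0.11, where 50% of all tested probe sets were higher. LHCB4.3, a light-harvesting protein, had the 1 unadjusted p under 0.05 (-0.23). The root marker PYK10, a beta-glucosidase, read 13757.6 to 14661.9 in Ws mock and 12432.7 to 14415.9 in rop10-1 mock. The root hair expansins EXPA7 and EXPA18 summed to 209.3 to 336.5 and 269.6 to 289.4. The 3 tested guard cell lineage markers summed to 1524.3 to 1682.4 and 1457.8 to 2071.7. Most of that sum came from AT1G22690, which differed by 0.14, while FMA and SPCH differed by -0.17 and -0.26. The 2 markers of senescence summed to 217.6 to 402.7 and 317.1 to 415.2. All these ranges overlapped. RCA, the activase of rubisco in leaves, read 11906.7 to 14334.6 over the 6 mock arrays, so transcripts typical of leaf and of root were both present in each sample. Marker lists of vascular tissue, seed, meristem and pollen had no tested member.

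**Figure D5:**
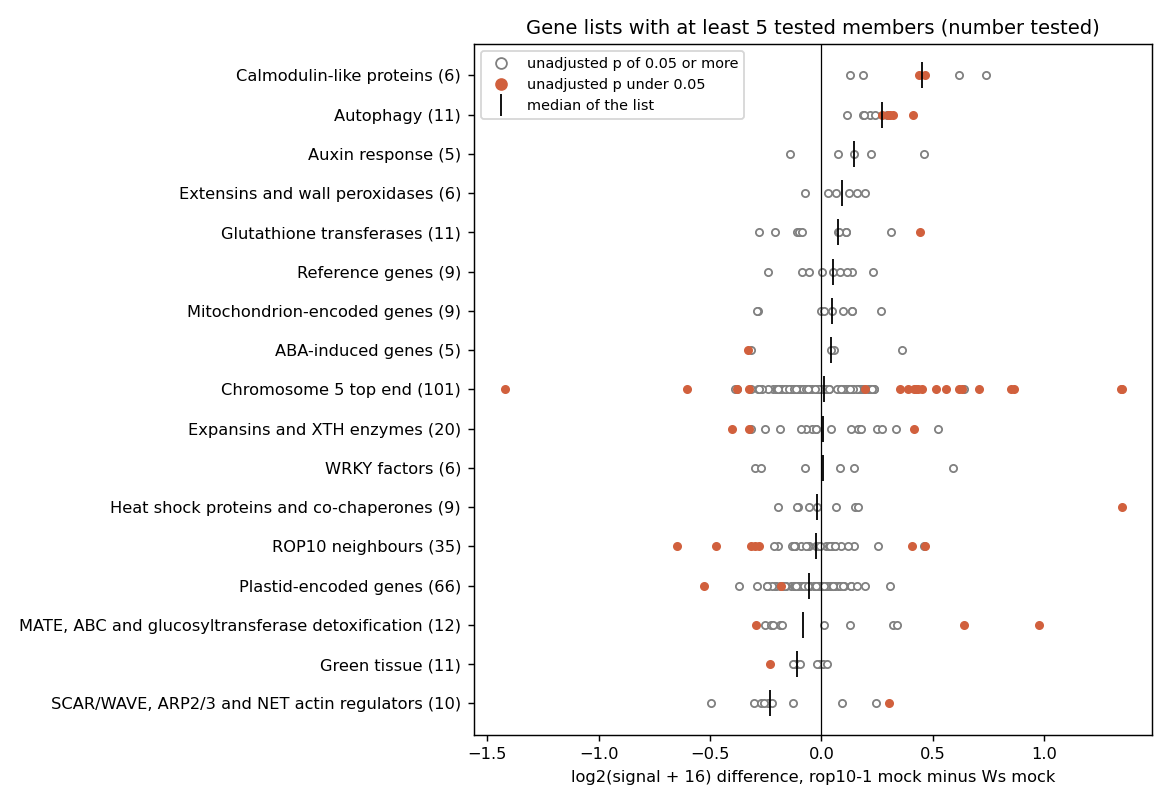
Log2(signal + 16) difference, rop10-1 mock minus Ws mock, of every tested member (points) of the lists with at least 5, ordered by their medians (bars). Filled points had an unadjusted p under 0.05; all 11 autophagy and all 6 calmodulin-like members lie to the right of 0, and most other lists straddle it.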

How the data were processed

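The deposited values are intensity per probe set of Affymetrix ATH1 arrays on a linear scale, made by the authors with GCOS 1.1.1, per the submitters' processing notes, at settings not given in the sources used here. Each array had a trimmed mean between 500.04 and 500.048, from a scaling step that those sources do not describe. The table held 22810 probe sets. The 64 controls and the 30% with the lowest mean were left out, which left 15922. The values were used as deposited, as log2(signal + 16), a scale that understates changes of dim genes.

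A limma 3.58.1 model (R 4.3.3) held 4 group means over all 12 arrays with the replicate number as a block. Tests were two-sided, by eBayes with an intensity trend, and p-values were adjusted by Benjamini-Hochberg over all 15922, with calls at an adjusted p under 0.05 and 6 residual degrees of freedom. Differences are rop10-1 minus Ws. The number of arrays, 3 per group, limits the precision. The script was tested on simulated data.

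The numbers in the titles paired the arrays: deviations from group means correlated at 0.22 to 0.71 between the 18 array pairs of 1 number and at -0.47 to 0.11 between others. The labels do not say what a number stands for, and p-values measure the spread between these samples.

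Gene names came from the platform's annotation, which may be outdated, and loci were ordered by a RefSeq gene table (TAIR10.1). ROP10 is not reported for want of an assigned probe set. Named genes were the calls with 1 gene, the 15 highest and the 15 lowest among single-gene probe sets with an unadjusted p under 0.05, pairs of 1 sign and groups that did not overlap, up to 4 members of each list by p (for most lists only those under 0.05), and members of the chromosome 5 region under 0.05. The 2-fold genes were added after their values were seen. The members and all lists were chosen with earlier results of these data known, so no test was made of a list. Alternatives were no block, the 6 mock arrays alone, a pseudocount of 1 or 64, other low filters, quantile normalization, median centring, no trend, array weights, shared-probe IDs left out, a 2-fold minimum, and each array or number left out.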

Additional observations from a re-analysis of the deposited data

How the results depend on the processing

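The 7 calls were 5 without the block and 5 to 7 under the other scalings, pseudocounts, weights and filters, except for 3 with no low filter. The 6 mock arrays alone gave 14 with the block and 0 without it, the latter a limma setting chosen after seeing the data (560 at an unadjusted p under 0.05). Leaving out arrays or numbers gave 1 to 10 calls: 2 without Ws mock 2, rop10-1 mock 2 or rop10-1 mock 3, 3 without rop10-1 mock 1, 4 without Ws mock 3, and 1 without number 3. Fes1C passed in 25 of 27 settings, AT5G01350 in 21 and AT5G01015 in 18. The 1525 probe sets at an unadjusted p under 0.05 were 598 without the block and 851 to 1766 in the leave-outs, with 851 without Ws mock 2, 941 without rop10-1 mock 2 and 881 without number 2. The 20 of the chromosome 5 region were 13 to 23, the lowest without rop10-1 mock 2. The interaction had 0 calls in every setting run. The causes were not tested, apart from the fewer arrays or the larger number of probe sets that a setting by construction holds.

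Among the named genes that did not pass, 11 turned sign in at least 1 setting, among them LEA4-5, at -0.31 with all arrays. With array weights COR15B was at -0.0024 and EEL at 0.048. In the leave-outs the lowest and highest were -0.082 and 0.29 for AT1G22690, -0.039 and 0.21 for SCN1, -0.26 and 0.21 for EEL, -0.15 and 0.10 for EXPA7, -0.57 and 0.0055 for LEA4-5, -0.087 and 0.35 for EXPA18, -0.069 and 0.21 for COR15B, -0.065 and 0.38 for WRKY53, -0.081 and 0.25 for AT4G34270, -0.028 and 0.064 for UGT71C5 and -0.14 and 0.060 for UGT71B6.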
